A study of Nitraria sibirica with 9 samples.

Results

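Among the leaf transcripts of Nitraria sibirica, 48 assembled clusters had a lower FPKM at 100 mM NaCl than without added salt, and a lower one again at 400 mM. They were taken from 31628 clusters in the deposited series table of FPKM, a measure of abundance per unit of cluster length and of sequencing depth. A cluster was kept when its lowest 0 mM library lay above its highest 100 mM library and its lowest 100 mM library above its highest 400 mM library. Its mean FPKM over all 9 libraries also had to be under 500, and the log2 ratio of its 400 mM mean to its 100 mM mean had to be -0.5 or lower. The members were thus chosen by the same FPKM values that are described here, so these values are a description and carry no test.

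Nitraria sibirica is a shrub of saline soils. Greenhouse seedlings received no added NaCl, 100 mM or 400 mM and were treated for 3 days, with 3 leaf libraries per level. Per the labels, salt was raised by 50 mM a day and the starts were staggered so that the levels were reached together, so a higher level also meant an earlier start in salt, and level and time in salt cannot be told apart. Nothing in the labels ties a replicate number to a plant of its own, so the spread between libraries may be technical. The 0 mM libraries held 16502576 to 19094481 counts each, those at 100 mM 18070003 to 22494402, and those at 400 mM 21814761 to 23932857.

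As background, salt acts on a leaf through water and through ions. It lowers the water potential around the roots, which slows growth and closes stomata, and sodium that accumulates in the shoot disturbs enzymes and potassium balance. Shrubs of saline soils are known for storing sodium in vacuoles and for making compatible solutes. A transcript that is lower at each higher salt level is called graded here. The files used here pair no cluster with a gene name, a protein description or a sequence, so the role of the 48 clusters is not stated, and no pathway was counted. As the tissue is whole leaf, fewer cells of a type and less RNA per cell cannot be told apart for any value below.

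Complete separation of the 3 levels in this order was rare in the series table. All 0 mM libraries lay above all 100 mM libraries in 6898 clusters (21.8%), and all 100 mM libraries lay above all 400 mM libraries in 2131 (6.74%). Both held in 101 clusters (0.319%). Of these, 52 had a last step smaller than the rule asked, and 1 had a mean FPKM over 500, which left the 48. Among the 6 possible orders of the 3 levels, the commonest was 0 mM above 400 mM above 100 mM, with 237 clusters, followed by 100 mM above 400 mM above 0 mM, with 219. The rising order, 400 mM above 100 mM above 0 mM, held in 39 clusters, and 17 of them met the mirror image of the whole rule. The surplus of falling over rising clusters depended on the scaling: it was 48 against 17 on FPKM, but 24 against 20 on counts scaled by TMM factors, which align the bulk of clusters between libraries, and 30 against 27 on FPKM brought to equal library sums. Both steps share the 100 mM libraries.

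Over the 48 clusters, the median level was 61.2% of the 0 mM mean at 100 mM and 35.6% at 400 mM. The range was 28.0% to 89.8% at 100 mM and 7.43% to 62.7% at 400 mM. On the log2 scale the median was -0.71 for the first step (100 against 0 mM), -0.69 for the last step (400 against 100 mM) and -1.49 for the total (400 against 0 mM). Over all 31628 clusters of the table the same medians were -0.21, 0.06 and -0.14. The table as a whole was therefore lower at 100 mM on this scale, and slightly higher again at 400 mM.

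**Figure D1:**
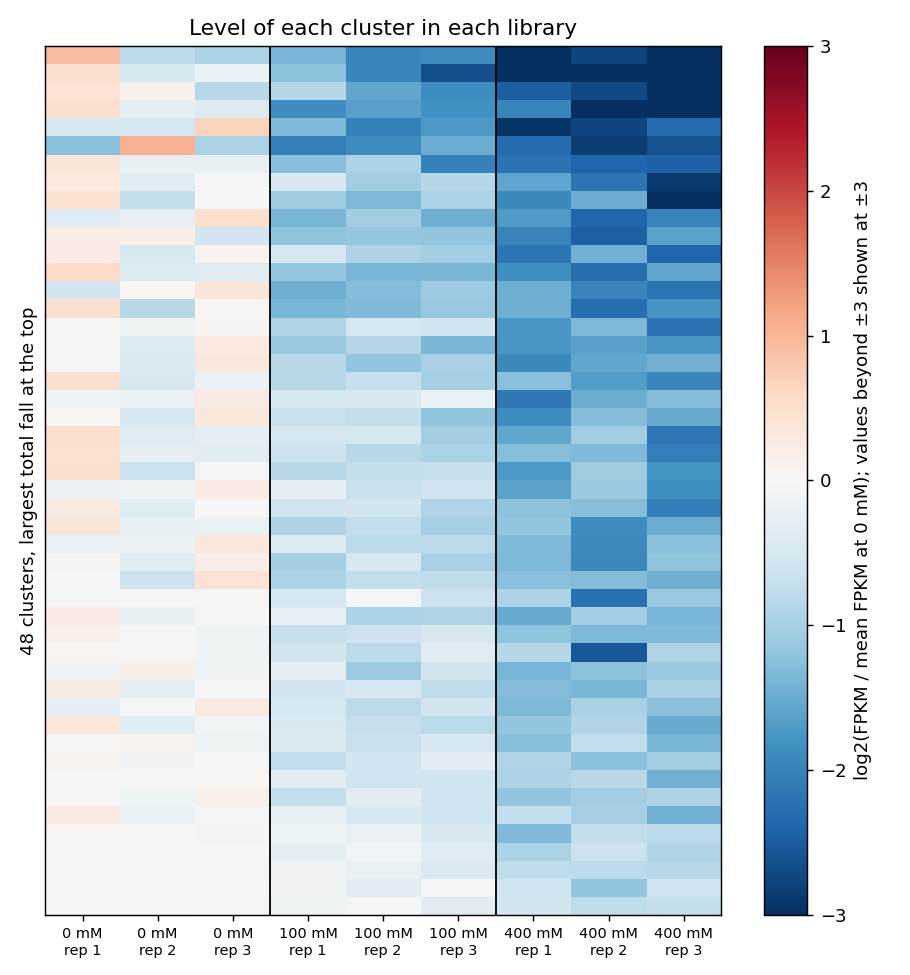
Levels of the 48 clusters (rows, ordered by the log2 ratio of 400 to 0 mM) in the 9 libraries (columns), as log2 of FPKM over the cluster's own 0 mM mean, with values beyond -3 or 3 shown at the end of the colour scale. Every row darkens towards 400 mM, which the choice of clusters fixes, while the depth of colour runs from a median of 61.2% of the 0 mM mean at 100 mM to 35.6% at 400 mM.

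The total difference was at least 2-fold in 43 of the 48 clusters and at least 4-fold in 9. Over all clusters of the table, 9.15% were at least 2-fold lower at 400 mM than at 0 mM, and 0.857% at least 4-fold. The first step reached 2-fold in 14 members, the last step in 8 and both steps in 4. These counts follow from the choice of members and are given for their size alone.

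Cluster-23439.43318, 1323 bases long, had the largest total difference. Its FPKM was 63.4, 19.65 and 17.8 in the 0 mM libraries, 12.75, 8.52 and 9.09 at 100 mM, and 2.15, 4.98 and 0.36 at 400 mM, each in the order of replicates 1 to 3. The level means were 33.6 ± 25.8, 10.1 ± 2.30 and 2.497 ± 2.33 (SD, n = 3 each). The levels did not overlap, but 0 mM replicate 1 stood far above the other 0 mM libraries and 400 mM replicate 3 far below the other 400 mM libraries. The log2 ratio of 400 to 0 mM was -3.75, and it lay between -4.74 (without 400 mM replicate 2) and -2.91 (without 0 mM replicate 1) when any 1 library was left out. Behind these values stood estimated counts of 1130 in 0 mM replicate 1 and 9.18 in 400 mM replicate 3.

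Cluster-23439.36684, 334 bases long, came next with a log2 ratio of -3.16. Its FPKM was 16.42, 8.55 and 10.1 at 0 mM, 4.97, 2.99 and 1.87 at 100 mM and 1.43, 1.05 and 1.45 at 400 mM. It also had the largest first step of all members, a log2 ratio of -1.83. The counts behind it were small, from 14 to 25 at 0 mM, from 3 to 10 at 100 mM and from 2 to 3 at 400 mM, so that single fragments weigh in the last step.

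The other 7 clusters that were at least 4-fold lower are given by their length, as only the 2 above are named. A cluster of 502 bases was at 6.31, 5.19 and 2.63 FPKM at 0 mM, 2.6, 1.61 and 1.3 at 100 mM and 0.85, 0.72 and 0.33 at 400 mM. Its 0 mM replicate 3 and 100 mM replicate 1 lay only 1.01-fold apart. It was the only member outside the largest group of clusters, those whose names carry the number 23439, and the sole cluster under its own number. A cluster of 2323 bases was at 6.12, 3.59 and 3.26 FPKM at 0 mM, 1.19, 1.4 and 1.23 at 100 mM and 1.1, 0.41 and 0.42 at 400 mM. Its 0 and 100 mM libraries were 2.33-fold apart, the widest such gap among the members. Without 400 mM replicate 1, the one library at that level close to the 100 mM libraries, its total log2 ratio moved from -2.75 to -3.38. A cluster of 1633 bases owed the size of its difference to a single library at 0 mM. It stood at 7.91 FPKM in 0 mM replicate 2 but at 1.61 and 1.97 in replicates 1 and 3. At 100 mM it was at 0.93, 1.03 and 1.36, and at 400 mM at 0.76, 0.53 and 0.63. Its log2 ratio of -2.58 became -1.48 without 0 mM replicate 2, and the levels still did not overlap. The first named cluster and these clusters of 2323 and 1633 bases were the 3 of 48 whose total ratio moved by more than 1.5-fold when 1 library was left out.

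In the remaining 4 of the 9, no single library moved the total ratio by more than 1.5-fold. A cluster of 643 bases was at 7.88, 7.73 and 17.57 FPKM at 0 mM, 4.37, 2.71 and 3.35 at 100 mM and 1.43, 1.63 and 2.23 at 400 mM. A cluster of 1026 bases was at 8.45, 5.69 and 5.65, then 2.74, 3.46 and 1.62, and then 1.41, 1.27 and 1.23 FPKM. In the second of these the 400 mM libraries lay close together, and the last step was 2-fold. A cluster of 1450 bases had the larger share of its difference in the last step, with 9.68, 6.25 and 7.74 FPKM at 0 mM, 5.74, 3.82 and 4.38 at 100 mM and 2.64, 1.73 and 1.07 at 400 mM. A cluster of 1168 bases was at 5.15, 2.29 and 3.75 FPKM at 0 mM, 1.79, 1.47 and 1.93 at 100 mM and 0.98, 1.34 and 0.47 at 400 mM. Its log2 ratio of -2.004 put it at the edge of 4-fold. Of the 9 clusters, 6 stayed at least 4-fold lower whichever library was left out.

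**Figure D2:**
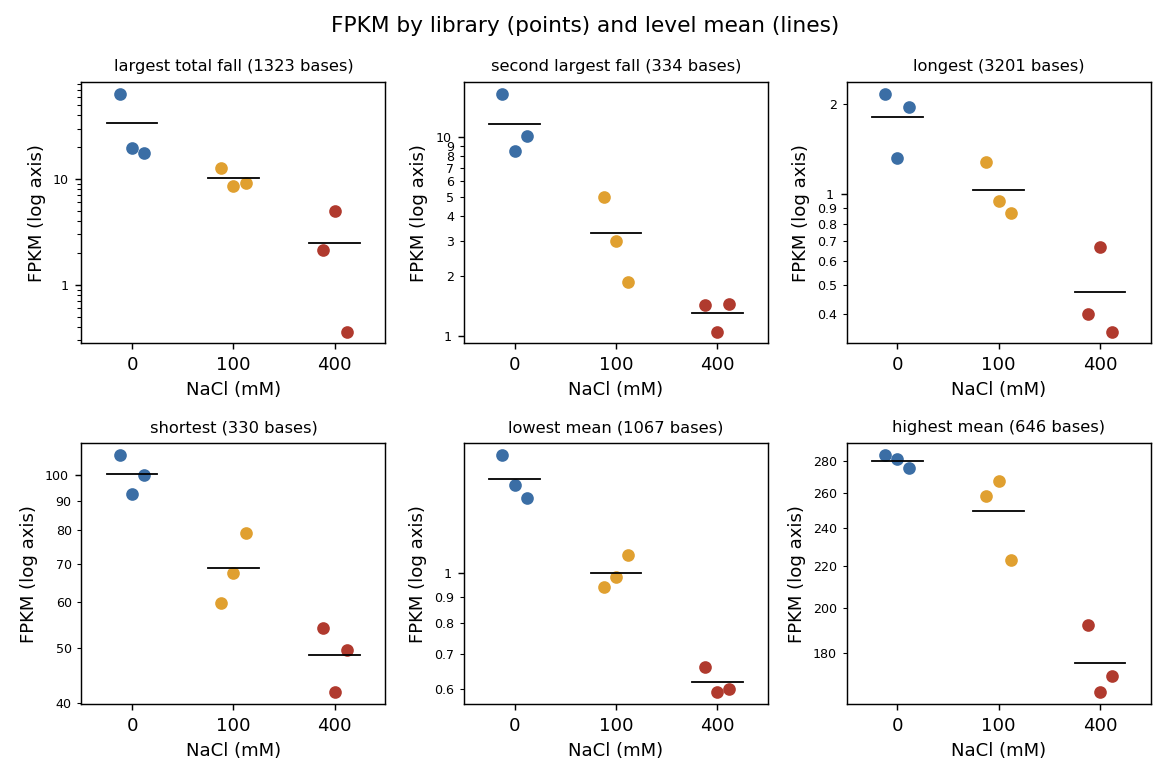
FPKM (log axis) of 6 of the 48 clusters in each library (points) at 0, 100 and 400 mM NaCl, with the mean of the 3 libraries of a level as a line. The cluster with the largest total difference ranges from 63.4 to 0.36 FPKM over the 9 libraries, while the most abundant one ranges only from 284 to 165 FPKM.

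At the other end, 5 clusters differed by less than 2-fold between 0 and 400 mM, and in these the last step was the larger one. The most abundant member, 646 bases long, had the smallest total difference. It was at 284.11, 281.52 and 275.47 FPKM at 0 mM, 258.24, 267.49 and 222.87 at 100 mM and 192.17, 164.53 and 170.81 at 400 mM. Its log2 ratios were -0.17 for the first and -0.50 for the last step, which is also the value just inside the rule. Its first step turned its direction with TMM-scaled counts, where the mean was 103 CPM at 0 mM and 108 at 100 mM, a log2 ratio of 0.07, and the libraries overlapped. The first cluster outside the rule had a last step of -0.49. It was 630 bases long, with 1.88, 2.06 and 3.92 FPKM at 0 mM, 1.52, 1.28 and 1.47 at 100 mM and 1.14, 0.82 and 1.08 at 400 mM. Its total ratio of -1.37 was close to the members' median. The 52 clusters left out for the last step alone had a median total ratio of -0.68 and a median level of 16.2 FPKM. The medians of the members were -1.49 and 4.29 FPKM.

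The smallest first step belonged to a cluster of 918 bases. It was at 22.01, 22.21 and 22.28 FPKM at 0 mM, 20.75, 17.55 and 21.45 at 100 mM and 14.74, 9.7 and 14.59 at 400 mM, with log2 ratios of -0.15 and -0.61. On TMM-scaled counts its 100 mM mean was the higher one, at 14.5 against 13.6 CPM (log2 0.09), with overlapping libraries. Its 0 mM libraries had a coefficient of variation (SD over mean) of only 0.632%, so that a small step was enough to separate the levels on FPKM. A cluster of 1300 bases was similar, at 12.31, 12.01 and 12.65, then 11.44, 10.65 and 9.17, and then 7.29, 7.14 and 6.95 FPKM. In both, the separation of 0 from 100 mM on FPKM rests on gaps of 1.03-fold and 1.05-fold between the nearest libraries. The means of the cluster of 1300 bases were both 11.9 CPM on TMM-scaled counts. Over the 48 clusters the coefficient of variation had a median of 22.1% in the 0 mM libraries, 13.2% in those at 100 mM and 23.6% in those at 400 mM, beside 24.8%, 26.2% and 27.6% over all clusters. The 100 mM libraries had to lie between the other levels, so the rule itself narrows their spread.

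The cluster left out for its abundance had a graded pattern at a far higher level. It was 327 bases long, with 1561.81, 1552.48 and 2171.21 FPKM at 0 mM, 531.58, 484.44 and 634.47 at 100 mM and 129.14, 378.91 and 106.77 at 400 mM. Its log2 ratios were -1.68 and -1.42, and 400 mM replicate 2 stood well above the other libraries of its level.

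On FPKM, the 2 steps were of similar size on the log2 scale over the 48 clusters. The first step was the larger in 23 clusters and the last step in 25, and the first step made up a median of 50.0% of the total log2 difference, with a range of 20.1% to 71.0%. Where the first step was larger, the medians were -1.11 and -0.66, and where the last step was larger they were -0.56 and -0.70. On TMM-scaled counts, in contrast, the median first step was -0.47 and the last -0.74, the first was the larger in 12 clusters and the last in 36, and the first made up a median of 37.5%. The FPKM values of the last step varied less than those of the first, and its threshold bounds it from one side. Clusters with the larger first step also had the wider spread at 0 mM, with a median coefficient of variation of 31.4% against 12.7%. In terms of salt the steps were unequal, since the first spans 100 mM and the last the range from 100 to 400 mM.

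**Figure D3:**
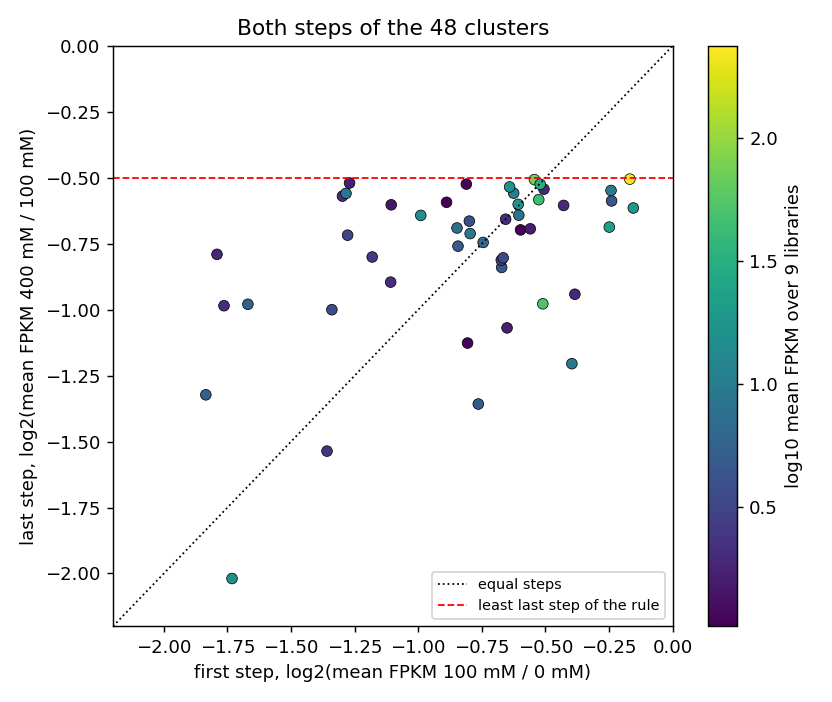
First step (log2 ratio of mean FPKM, 100 to 0 mM) against last step (400 to 100 mM) for the 48 clusters, coloured by log10 of mean FPKM. The dotted line marks equal steps, with 23 clusters where the first step is larger and 25 where the last is, and the dashed line marks the least last step of the rule, which 14 clusters exceed by less than 0.1.

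Many of the separations were narrow. The lowest 0 mM library lay a median of 1.16-fold above the highest 100 mM library, with a range of 1.01 to 2.33, and the lowest 100 mM library a median of 1.18-fold above the highest 400 mM library, with a range of 1.003 to 1.71. The first gap was under 1.1-fold in 17 clusters and the last gap in 11, and both gaps reached 1.1-fold in 22 clusters and 1.2-fold in 7. The library that limited a gap was not always the same one. At 0 mM, replicate 2 was the lowest of its level in 26 of the 48 clusters, replicate 3 in 12 and replicate 1 in 10. At 100 mM, replicate 1 was the highest in 22 clusters, replicate 2 in 16 and replicate 3 in 10. At 400 mM the highest library was replicate 1 in 21 clusters, replicate 2 in 16 and replicate 3 in 11. In the whole table, replicate 1 was likewise the most often highest at each salt level, in 43.7% of clusters at 100 mM and 39.1% at 400 mM. Replicate 2 at 0 mM was lowest in 31.2% of all clusters.

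By library, the median level of the 48 clusters was 105%, 85.8% and 98.2% of the cluster's own 0 mM mean in the 0 mM libraries. It was 62.4%, 60.1% and 54.6% at 100 mM and 37.0%, 37.7% and 35.2% at 400 mM. Summed FPKM of all members averaged 948 ± 66.9 without salt, 669 ± 30.1 at the 100 mM level and 435 ± 14.9 at the 400 mM level (SD, n = 3 each). Without the most abundant member the sums were 667 ± 66.0, 419 ± 15.9 and 259 ± 12.9. Their share of a library's counts was 0.0568% ± 0.00516 without salt, 0.0383% ± 0.00173 at the 100 mM level and 0.0242% ± 0.000467 at the 400 mM level, a minor part of the leaf RNA throughout.

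The separation of 0 from 100 mM depended on how the libraries were scaled. FPKM are scaled by library size. With CPM, counts scaled to library size, further scaled by TMM factors, the median first step over all clusters of the table moved from -0.21 to 0.03 and the median total from -0.14 to 0.04. The factors were 1.15, 1.09 and 1.09 at 0 mM, 1.001, 0.907 and 0.882 at 100 mM, and 1.005, 0.994 and 0.915 at 400 mM. On this scale the members' median first step was -0.47, the last step -0.74 and the total -1.32. The whole rule then held in 19 of the 48 members, both named clusters among them. The other 29 failed for the same reason, an overlap of the 0 and 100 mM libraries, and in 3 of them, the clusters of 646, 918 and 1628 bases, the 100 mM mean was no longer the lower one. All 48 kept their 0 mM libraries above their 400 mM libraries, which held for 10.9% of all clusters on this scale. All 48 also kept their 100 mM above their 400 mM libraries. On FPKM that held for 6.74% of all clusters, and the share on TMM-scaled CPM was not counted. The rule had fixed both separations on FPKM, so these counts are a description only.

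**Figure D4:**
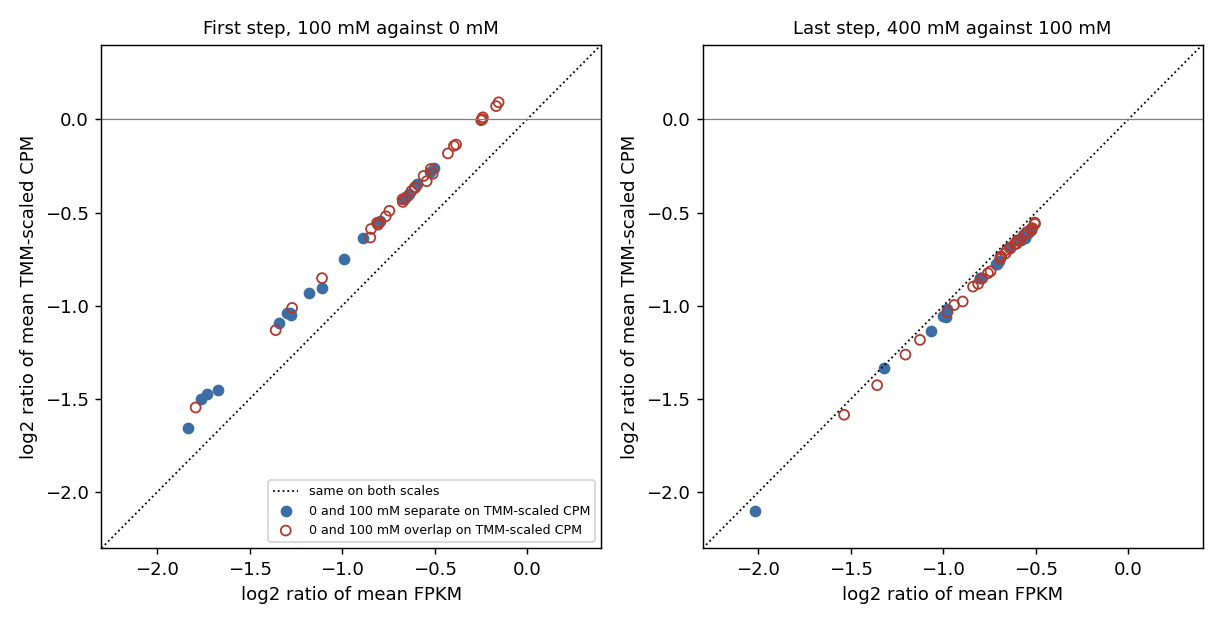
Log2 ratios of mean FPKM (x axis) against those of mean TMM-scaled CPM (y axis) for the first step (left) and the last step (right), with the dotted line where both scales give the same value. In the left panel all points lie above the line, with a median of -0.47 in place of -0.71. Open points are the 29 clusters whose 0 and 100 mM libraries overlap on the second scale.

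The 19 clusters that held on both scales had larger first steps, with a median FPKM log2 ratio of -1.11 against -0.62 in the other 29. Their last steps were alike in size, at medians of -0.71 and -0.69. The median level was 3.50 and 4.62 FPKM and the median length 938 and 1168 bases, respectively. With FPKM rescaled so that each library sums to the same total (TPM), 30 of the 48 met the rule. Of the 18 that did not, 0 and 100 mM overlapped in 7, 100 and 400 mM overlapped in 3 and the last step was too small in 9, where 1 cluster can fail on more than one count. All 48 had their 0 mM libraries above their 400 mM libraries on TPM too. On FPKM the rule had fixed this separation, which held there for 17.8% of all clusters. The share on TPM was not counted, so the count is a description only. The rule was met by 16 members on all 4 scales tried, which also included CPM with no TMM factor.

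In edgeR's quasi-likelihood test over all clusters, 47 of the 48 members passed the filter on low counts, and none was called at an adjusted p under 0.05. The member left out was 366 bases long. At 100 against 0 mM 0 of 47 members were called lower, where the test called 0.0757% of clusters lower. Without adjustment 8 members had a p under 0.05, beside 6.53% of clusters, and DESeq2 called 4 of 48, beside 3.15%. At 400 against 0 mM edgeR called 0 members and 0% of clusters. Here 46 of 47 members had an unadjusted p under 0.05, beside 4.9% of clusters, and DESeq2 called 40 of 48, beside 2.13%. At 400 against 100 mM edgeR again called 0 members and 0% of clusters, 22 of 47 had an unadjusted p under 0.05, beside 3.39%, and DESeq2 called 8 of 47, beside 1.01%. Limma on log2(FPKM + 1) called 0 members in both single steps (0.819% and 0.00837% of clusters) and 2 at 400 against 0 mM (0.103%). With log2(FPKM + 0.1) it called 0 members at 100 against 0 mM (0.99% of clusters), 0 at 400 against 100 mM (0.0622%) and 2 at 400 against 0 mM (0.483%). The rule used each of these contrasts, so nothing is read from the members' counts.

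What the rule did not use was the length of a cluster. The members were 330 to 3201 bases long with a median of 1067, beside a median of 1476 and a range of 201 to 15080 over all clusters of the table. The median was 1171 bases in the 52 clusters left out for the last step alone, so a short median was not particular to the members. In the 17 clusters of the mirror rule it was 1421. Of the 48, 7 were under 500 bases (14.6%, beside 8.98% of all clusters), 14 had 500 to 1000 bases (29.2%, beside 21.3%) and 20 had 1000 to 2000 bases (41.7%, beside 38.0%). Only 7 were 2000 bases or longer (14.6%, beside 31.7%). The longest member was at 2.15, 1.32 and 1.95 FPKM at 0 mM, 1.28, 0.95 and 0.87 at 100 mM and 0.4, 0.67 and 0.35 at 400 mM. By contrast, the shortest member, of 330 bases, was far more abundant, at 108.28, 92.62 and 100.08, then 59.75, 67.52 and 79.26, and then 54.06, 41.77 and 49.54 FPKM.

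The members were mostly of low to moderate abundance. Their mean FPKM over the 9 libraries had a median of 4.29 and ran from 1.04 to 235, beside a median of 6.11 over all clusters. It lay between 1 and 10 in 36 members (75%, beside 56.8% of all clusters), between 10 and 100 in 11 (22.9%, beside 33.0%) and over 100 in 1. The 36 clusters under 10 FPKM had a median total log2 ratio of -1.57 and the 12 at 10 FPKM or more one of -1.14. Their median coefficients of variation at 0 mM were 24.3% and 13.7%. Level and ratio both come from the values that chose the members, so the contrast is a description only. The scarcest member was one of the most even, at 1.68, 1.47 and 1.39 FPKM at 0 mM, 0.94, 0.98 and 1.08 at 100 mM and 0.66, 0.59 and 0.6 at 400 mM. At 400 mM 12 members had a mean under 1 FPKM (25%, beside 7.44% of all clusters). The rule chose clusters for being lowest at 400 mM, so nothing is read from this difference. An estimated count under 10 in at least 1 library, where counting error is large, occurred in 8 (16.7%, beside a similar 15.5%).

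**Figure D5:**
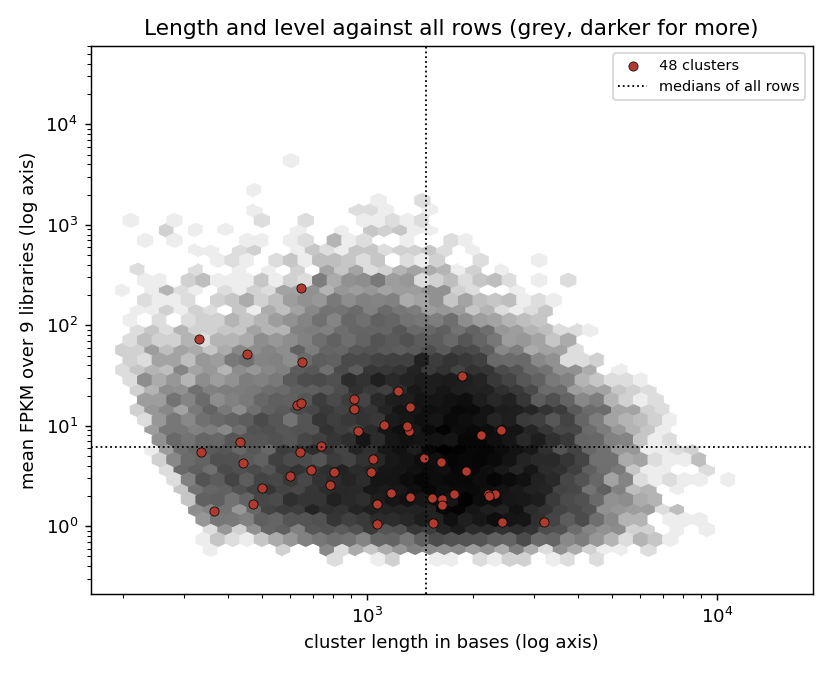
Length in bases (x, log axis) and mean FPKM over the 9 libraries (y, log axis) of the 48 clusters (red) over all 31628 clusters of the table (grey, darker where more lie), with dotted lines at the medians of all clusters, 1476 bases and 6.11 FPKM. 33 of the 48 are shorter than the median length and 29 lie under the median level.

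In their names, 47 of the 48 members (97.9%) carried the number 23439, beside 99.3% of all clusters of the table. The number therefore groups nearly the whole table and does not set the members apart. Alleles, family members and fragments of 1 transcript can be assembled as separate clusters that compete for the same reads, so that 48 clusters need not be 48 genes.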

How the data were processed

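RNA from leaves at 3 salt levels was sequenced in 9 libraries. The deposited library tables hold estimated counts for 126059 clusters, made by the authors with no stated normalization, and FPKM values that the authors scaled to length and depth, per the file headers. In 38.5% to 42.5% of clusters per library, the count as printed, to 2 decimals, had a fractional part other than 0. The deposited series table gives FPKM and length, and tests on the files showed that it keeps those clusters exceeding an FPKM of 0.3 in every library. The submitters' processing notes list Bowtie2 2.0.6 and TopHat2 2.0.9. The assembler, the counter and its strandedness were not given in the sources used here.

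Members, rule and settings were chosen with earlier results of these data known. Counts were rounded and tested over all clusters with edgeR 4.0.16 in R 4.3.3 (quasi-likelihood, TMM, filterByExpr, 56832 clusters, 6 residual degrees of freedom, Benjamini-Hochberg adjustment), with salt level as 3 groups. The procedure was tested on simulated data with less spread than the fit estimated, and with larger changes and more abundant clusters than most members had. That simulation therefore does not show how often changes like those of the members would be called. DESeq2 1.42.0, limma 3.58.1, other scalings, no filter, a replicate block and leaving out each library were alternatives. For limma, clusters with an FPKM over 0.3 in at least 3 libraries were used, with pseudocounts of 1 and 0.1, which understate changes of scarce clusters. The 2 clusters with the lowest ratio of 400 to 0 mM are named, and further members were shown for being extreme in length, level or step. The other clusters at least 4-fold lower, 1 under 2-fold lower (1300 bases) and the one left out for abundance were shown after their values were seen. Total counts of 16502576 to 23932857 per library set the precision. Gene lists, sequences and enrichment were not analysed here.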

Additional observations from a re-analysis of the deposited data

How the results depend on the processing

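Of the 48 clusters, edgeR called 0 in each comparison. The count stayed 0 with RLE size factors, library size only, no filter, the newer adjusted deviances (chosen after seeing the data) and without any 1 library. Over all clusters, these settings called 0 to 295 lower at 100 against 0 mM. They called 0 to 14 lower at 400 against 0 mM and 0 to 1 at 400 against 100 mM. DESeq2 called 4 members at 100 against 0 mM (3.15% of all clusters), 40 at 400 against 0 mM (2.13%) and 8 at 400 against 100 mM (1.01%). Limma called 2 at 400 against 0 mM with a pseudocount of 1 (0.103%) and 2 with 0.1 (0.483%). The cause was not tested. With the replicate block the count of members called was 0 in all 3 comparisons. Over all clusters 52 were called lower at 100 against 0 mM, 1 at 400 against 0 mM and 0 at 400 against 100 mM. The numbers are not shown to pair the libraries, as the deviations of same-numbered libraries correlated at -0.009 to 0.172 and only 1 of 9 pairs passed 0.1. The number of clusters meeting the rule, 48 on FPKM, was 24 on TMM-scaled CPM, 30 on TPM, 149 over every cluster of the library tables, 100 with no least last step and 8 with a last step of at least 2-fold. Leaving out 1 library loosens the order condition by construction, while the last step is computed anew. It gave 69 to 206 clusters, the most without 400 mM replicate 1. That number moved by over 1.5-fold without any library other than 400 mM replicate 3. All 48 members stayed without any 1 of the 0 mM libraries. Without a library of the other levels 39 to 46 stayed, the fewest without 400 mM replicate 2. The members' median log2 ratios were, on log2(FPKM + 1), -0.56 for 100 against 0 mM, -0.51 for 400 against 100 mM and -1.12 for 400 against 0 mM. On TMM-scaled CPM they were -0.47 for the first and -1.32 for the last of these, and on TPM -1.37 for 400 against 0 mM. Without 1 library they ran from -0.83 to -0.61, -0.77 to -0.65 and -1.62 to -1.33 in the same order. No median turned its sign under these settings. The rule had fixed the direction of every member's FPKM ratios beforehand, so the kept sign is a description and no support. On TMM-scaled CPM the first step of 3 single members did turn its sign.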

Other observations

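The series table holds only clusters above 0.3 FPKM in every library, so clusters that came close to absence at 400 mM could not enter the 48. Applied to every cluster of the library tables, the same conditions held for another 101 clusters. In 17 of them all 400 mM libraries were listed at 0, and in 68 at least 1 was. These clusters were scarce, with a median FPKM of 0.907 at 0 mM, 0.337 at 100 mM and 0.0667 at 400 mM. Of the 101, 42 passed edgeR's filter on low counts, beside 56832 of all 126059 clusters, a similar share. Only 4 had a mean over 5 FPKM at 0 mM. The number 23439 stood in the names of 70 of the 101. Its share over all clusters of the library tables was not counted, and the share in the series table covers other clusters, so nothing is read from this count.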
